A study of Mus musculus with 6 samples.

Results

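The progestin and adipoQ receptor (PAQR) family was followed in 393P cells, an epithelial murine lung adenocarcinoma line, made to express ZEB1 (393P_ZEB1) or carrying an empty vector (393P_vector). The family was taken by name as Mmd (also called PAQR11), Mmd2, Paqr3, Paqr4, Paqr5, Paqr6, Paqr7, Paqr8, Adipor1 and Adipor2, and all 10 were among the 24214 RefSeq features of the count tables. Total RNA from 3 samples of each condition was sequenced on the SOLiD platform. Both conditions share the parental line, which the labels describe as KP lung cancer cells of strain C57BL/6, and the methods describe stable transfectants selected with puromycin or G418. The promoter of the vector, whether a line is 1 clone, and whether replicates are separate cultures are not given, so p-values measure only the spread between these samples.

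PAQR proteins are multi-pass membrane proteins that sit in the Golgi, endosomes or plasma membrane. The adiponectin receptors bind the fat-derived hormone adiponectin and have ceramidase activity, Paqr5 to Paqr8 are the membrane progesterone receptors, and Paqr3 holds Raf kinases at the Golgi. Mmd and Mmd2 are close relatives of each other that reside in the Golgi, where Mmd acts as a scaffold. ZEB1, the EMT-activating factor, silences genes through E-boxes and represses the miR-200 family, whose members pair with 3′-untranslated regions (UTRs) through bases 2 to 8.

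The miR-200 family has 5 mature microRNAs with 2 seeds, shown here because the study searched these data for microRNA targets that act in vesicular trafficking. The RefSeq sequences follow 5′ to 3′ with the seed in capitals, and the first 3 share AAUACUG while the last 2 share AACACUG.
mmu-miR-200b-3p: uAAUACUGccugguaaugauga
mmu-miR-200c-3p: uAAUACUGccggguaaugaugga
mmu-miR-429-3p: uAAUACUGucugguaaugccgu
mmu-miR-200a-3p: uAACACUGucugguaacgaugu
mmu-miR-141-3p: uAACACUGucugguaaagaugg

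For each member, the coding transcript in GENCODE M21 (GRCm38) with the greatest length gave the 3′ UTR that was searched on the transcript strand for CAGTATT and CAGTGTT, the matches to these seeds. A match followed by an A is an 8mer, and other matches are 7mer-m8. A CAGTATT match was present in 4 of the 10 members, against 15.7% of 12005 tested genes with a 3′ UTR. A CAGTGTT match was present in 3 of the 10, against 21.0% of the tested genes. At least 1 of these matches was present in 6 of the 10, against 30.4% of the tested genes. These sites are printed below with the match in capitals and with the coordinates of the capitals.
Mmd, chr11:90276888-90276895, plus strand: tttcaaatCAGTATTAtcacgatg
Mmd2, chr5:142563506-142563513, minus strand: gtcaaagcCAGTATTAaatcaagt
Paqr8, chr1:20936726-20936733, plus strand: gaggacagCAGTATTAactgccag
Adipor2, chr6:119353317-119353323, minus strand: gcctttttCAGTATTtcctctct
Adipor2, chr6:119353839-119353846, minus strand: actaagaaCAGTGTTAattcctca
Paqr7, chr4:134510130-134510136, plus strand: ttttgaaaCAGTGTTtctctgtc
Adipor1, chr1:134432878-134432884, plus strand: agagtctcCAGTGTTgaggcata
The Mmd 8mer began at base 25 of a 3′ UTR of 1726 bases. The Paqr8 8mer began at base 1038 of 3962. The median 3′ UTR of the tested genes had 1179 bases, shorter than that of 9 of the 10 members except Paqr6 with 578 bases, and a longer 3′ UTR has more places for a match. The sites of Paqr7 and Adipor1 lay beyond the interval in which the authors counted reads. No match was found for Paqr3, Paqr4, Paqr5 and Paqr6, which says only that these letters are not in those 3′ UTRs.

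Promoter windows in RefSeq on GRCm38.p6, from 250 bases before to 50 bases after a start site, were searched on both strands for the E-box CAGGTG, which reads CACCTG on the other strand. It was present for 3 of the 10 members and for 21.1% of 9748 tested genes with a window. The E-boxes are shown in capitals with 8 bases on each side, on the strand of the gene.
Mmd, chr11:90249371-90249376, plus strand: gtgacgcgCAGGTGgctgcggg
Paqr7, chr4:134497034-134497039, plus strand: tctgaccaCAGGTGagactgct
Paqr5, chr9:62026803-62026808, minus strand: gggttctcCAGGTGcagttccc
Paqr5, chr9:62026997-62027002, minus strand: ctaaggggCACCTGaggctgaa
The Mmd E-box began 105 bases before the start site. A match describes the sequence and does not show binding.

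Total counts were between 54442450 and 79158012. Levels are given as CPM, counts scaled to the normalized library size, and the detection floor of 3 counts was 0.0361 to 0.0561 CPM depending on the sample. In bulk samples such as these, fewer cells of a type and less RNA per cell cannot be told apart. Zeb1 rose from 21.5 ± 0.435 CPM in 393P_vector samples to 51.7 ± 3.01 CPM in 393P_ZEB1 samples (SD, n = 3 each), a log2 fold change of 1.26. Zeb1 lies on chromosome 18, whose other tested genes had a median log2 fold change of 0.64, and all 8 tested genes within 1 Mb of it were called higher (0.54 to 1.24, median 0.89). Of 7 epithelial markers 6 were lower in 393P_ZEB1 cells, among them Cdh1 with a log2 fold change of -4.09, and all 5 mesenchymal markers were higher. Markers of lung epithelial lineage were near 0 apart from Foxj1, and the summed levels of the leukocyte, endothelial and fibroblast lists were between 0.63 and 3.62 CPM in all samples. 393P_vector replicate 3 stood apart from its group. Its counts differed from those of replicates 1 and 2 with chi-square values of 302.8 and 332.2 per degree of freedom, against 21.1 between replicates 1 and 2 and between 31.99 and 56.87 within 393P_ZEB1. Results are therefore also given without that replicate where it changes them.

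Of the 10 members, Mmd and Paqr4 were higher in 393P_ZEB1 cells, and Paqr8, Paqr5 and Adipor2 were lower. Adipor1, Paqr7 and Paqr3 did not pass the test, and Mmd2 and Paqr6 were too low to be tested. A call means an adjusted p below 0.05 in edgeR's quasi-likelihood test with Benjamini-Hochberg adjustment over 13892 genes. In that test 18.3% of all genes tested were called higher and 19.3% lower, 37.6% in either direction, so 5 calls among the 8 members tested are read against that share. The groups did not overlap for 6 of the 8, against 52.8% of all genes tested. Without 393P_vector replicate 3 the number of members called was 6, where 53.0% of all genes tested were called, and without 393P_ZEB1 replicate 2 it was 4, where 26.0% were called.

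Mmd, which encodes the Golgi scaffold, lies on the plus strand of chr11:90249476-90278573 and was counted over 7 exons of 2654 bases in all. Its level was 118.1, 98.0 and 103.1 CPM in 393P_vector replicates 1 to 3 and 276.3, 262.6 and 207.4 CPM in 393P_ZEB1 replicates 1 to 3. Every 393P_ZEB1 sample lay above every 393P_vector sample, and 393P_ZEB1 replicate 3 was the lowest of its group. The means were 106.4 ± 10.4 CPM and 248.8 ± 36.5 CPM (SD, n = 3 each). This was a 2.34-fold rise, a log2 fold change of 1.23 (standard error, SE, 0.14, adjusted p = 0.000376 from edgeR; exact two-sided permutation p = 0.1, the smallest that 3 samples against 3 allow). Across the 6 fits that each left out a sample, the log2 fold change of Mmd was between 1.15 and 1.35, and Mmd passed the threshold in each. All 7 exons had more than 10 reads in each of the 6 samples. The 8mer at the start of its 3′ UTR, printed above, lies inside the counted interval. GENCODE M21 also annotates Gm45716 and Gm45883 on the same strand across the start of Mmd. Neither is a row of the count tables, so reads from them in Mmd exons would be counted as Mmd.

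Mmd2, the closest relative of Mmd, was near the limit of detection. It had 2, 2 and 8 counts in 393P_vector samples and 1 count in each 393P_ZEB1 sample. The 3′ UTR of Mmd2 carries the same 8mer core as that of Mmd, but its level allowed no comparison between the conditions at this depth.

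The hormone-binding adiponectin receptors did not move alike. Adipor1 was measured at 176.9, 180.0 and 214.5 CPM in 393P_vector samples and at 215.3, 227.4 and 213.4 CPM in 393P_ZEB1 samples. The groups overlapped only through 393P_vector replicate 3. The log2 fold change of Adipor1 was 0.20 (95% confidence interval -0.06 to 0.45, adjusted p = 0.194 from edgeR; exact permutation p = 0.2). Without 393P_vector replicate 3 it was 0.29 and passed the threshold (adjusted p = 0.00666 from edgeR). Adipor2 was measured at 155.1, 149.2 and 140.1 CPM in 393P_vector samples and at 99.0, 105.5 and 96.4 CPM in 393P_ZEB1 samples. The groups were separate, and Adipor2 fell by 0.56 on the log2 scale (SE 0.10, adjusted p = 0.00281 from edgeR). Adipor2 lies on chromosome 6, whose 669 other tested genes had a median log2 fold change of -0.36, so Adipor2 was 0.21 below the median of its chromosome. The 18 tested genes within 1 Mb of Adipor2 had a median of -0.38, with 0 called higher and 6 lower. The 22 within 1 Mb of Adipor1 had a median of 0.44, with 10 called higher and 2 lower. Adipor1 was 0.24 and Adipor2 0.19 below the median of its neighbours. The part of these local shifts in the changes of Adipor1 and Adipor2 was not tested. The length-scaled ratio of Adipor2 to Adipor1 was between 0.333 and 0.447 in 393P_vector samples and between 0.230 and 0.236 in 393P_ZEB1 samples.

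**Figure D1:**
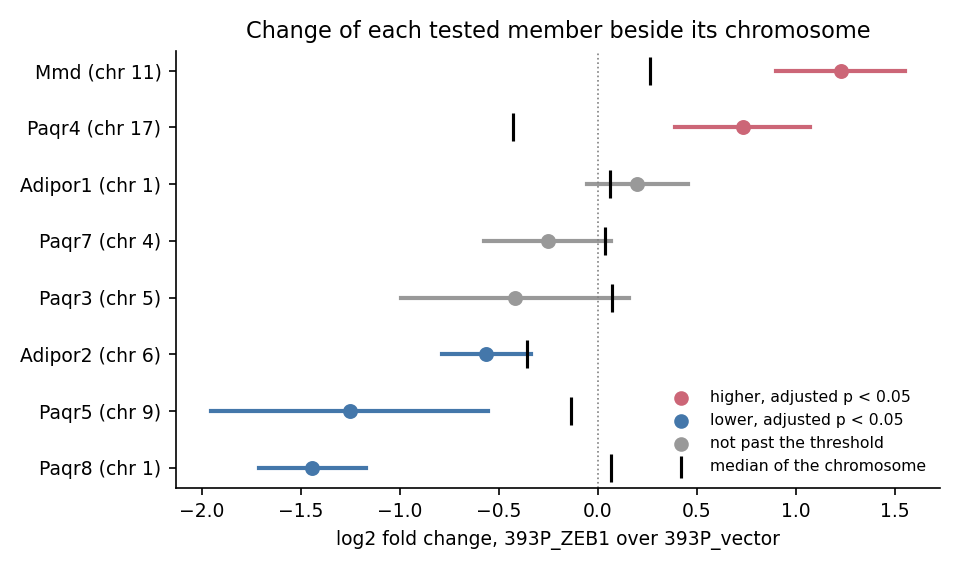
Points show the log2 fold change of each tested member in 393P_ZEB1 over 393P_vector cells (x axis), horizontal bars the 95% confidence interval of the edgeR estimate, and black ticks the median of the other tested genes on the same chromosome. Mmd at 1.23 and Paqr4 at 0.73 lie right of their ticks, Paqr8 at -1.44 and Paqr5 at -1.25 lie far to the left, and the interval of Adipor2 reaches the tick of chromosome 6.

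The membrane progesterone receptors were lower or did not pass the test. Paqr8 (mPRβ) had the largest decrease of the family by log2 fold change. Its level was 27.9, 26.0 and 25.8 CPM in 393P_vector samples and 9.91, 9.23 and 10.2 CPM in 393P_ZEB1 samples. Replicates lay close together in both groups and the groups were far apart. The log2 fold change was -1.44 (SE 0.12, adjusted p = 5.17e-05 from edgeR), so that 36.8% of the level in 393P_vector cells was left. The 3′ UTRs of Paqr8, which fell, and Mmd, which rose, hold the same 8mer.

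Paqr5 (mPRγ) was low throughout. Its level was 1.57, 1.33 and 1.70 CPM in 393P_vector samples and 0.916, 0.594 and 0.426 CPM in 393P_ZEB1 samples, resting on 308 and 108 counts in all. The groups did not overlap, and the log2 fold change was -1.25 (SE 0.30, adjusted p = 0.014 from edgeR). Without 393P_ZEB1 replicate 2 the change in Paqr5 was -1.19 and no longer passed (adjusted p = 0.0592 from edgeR). Only 1 or 2 of its 8 exons had more than 10 reads in any sample.

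Paqr7 (mPRα) was measured at 10.1, 10.6 and 9.14 CPM in 393P_vector samples and at 8.35, 7.61 and 9.04 CPM in 393P_ZEB1 samples. The groups did not overlap but nearly met at 393P_vector replicate 3 and 393P_ZEB1 replicate 3. The log2 fold change of Paqr7 was -0.25 (95% confidence interval -0.57 to 0.07, adjusted p = 0.191 from edgeR). Paqr6 (mPRδ) had 2, 6 and 4 counts in 393P_vector samples and 2, 1 and 1 counts in 393P_ZEB1 samples, too few for a comparison. Paqr9, the remaining relative of this group and not a member of the set, had at most 5 counts in any sample.

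Paqr3, which holds Raf and the SREBP escort protein SCAP at the Golgi, had overlapping groups. Its level was 5.48, 4.79 and 8.55 CPM in 393P_vector samples and 4.26, 5.56 and 4.29 CPM in 393P_ZEB1 samples. 393P_vector replicate 3 was the highest of all, and 393P_ZEB1 replicate 2 lay above 393P_vector replicates 1 and 2. The log2 fold change of Paqr3 was -0.42 (95% confidence interval -0.99 to 0.16, adjusted p = 0.223 from edgeR), and without 393P_vector replicate 3 it was -0.13 (adjusted p = 0.549 from edgeR). Paqr3 shares 8720 bases with Bmp2k on the other strand. Whether strand was used in counting is not given, so reads from the shared part may come from either gene.

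Paqr4, a Golgi member that has been tied to the stability of the cell cycle kinase CDK4, was higher in 393P_ZEB1 cells. Its level was 8.60, 8.04 and 6.57 CPM in 393P_vector samples and 12.97, 13.30 and 12.24 CPM in 393P_ZEB1 samples. The groups were separate, and the 393P_ZEB1 samples lay closer together. The log2 fold change was 0.73 (SE 0.15, adjusted p = 0.00623 from edgeR). Paqr4 lies on chromosome 17, whose 674 other tested genes had a median log2 fold change of -0.43. The 55 tested genes within 1 Mb of it had a median of -0.49, with 2 called higher and 27 called lower. Paqr4 overlaps Pkmyt1 on the other strand by 544 bases, and Pkmyt1 had a log2 fold change of -0.36 (adjusted p = 0.0483 from edgeR).

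**Figure D2:**
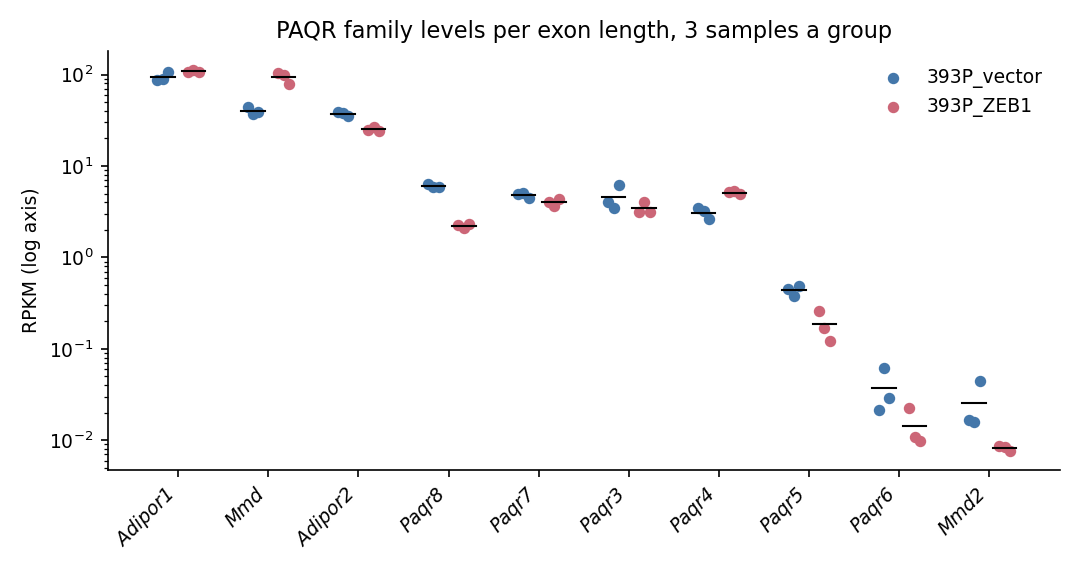
Points show the RPKM of each member in each sample (y axis, log scale), with 393P_vector and 393P_ZEB1 samples side by side and black bars at the mean of 3. Adipor1, Mmd and Adipor2 lie above 20 RPKM, Paqr5 lies below 0.5, and Mmd2 and Paqr6 rest on at most 8 counts a sample.

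Levels were compared between members as RPKM, the counts scaled by exon length and normalized library size. In 393P_vector cells Adipor1 was highest at 94.5 ± 10.4 RPKM (SD, n = 3), followed by Mmd at 40.1 ± 3.93 and Adipor2 at 37.5 ± 1.91, and the samples of the last 2 overlapped. Paqr8 came next at 6.02 ± 0.268 RPKM, then Paqr7 at 4.81 ± 0.354 and Paqr3 at 4.58 ± 1.46, which overlapped, and then Paqr4 at 3.09 ± 0.419 and Paqr5 at 0.439 ± 0.0541. In 393P_ZEB1 cells Adipor1 was at 108.5 ± 3.76 RPKM and Mmd at 93.7 ± 13.7, with all Mmd samples below all Adipor1 samples. Adipor2 followed at 25.4 ± 1.18 RPKM, clear of Mmd. Paqr4 moved up to the fourth place at 5.13 ± 0.218 RPKM, ahead of Paqr7 at 4.04 ± 0.346 and Paqr3 at 3.44 ± 0.543, which overlapped, and Paqr8 fell to the seventh at 2.21 ± 0.112.

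**Figure D3:**
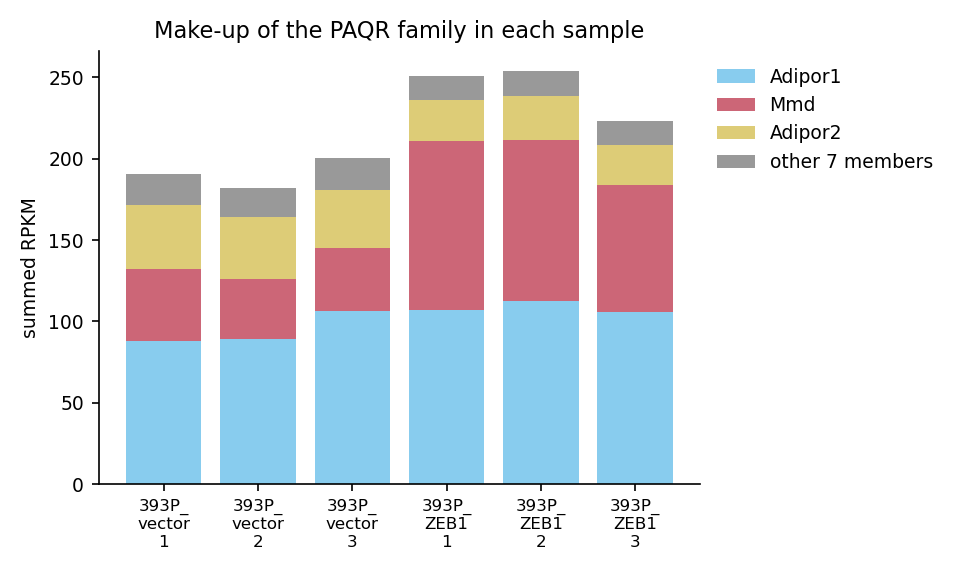
Each bar is 1 sample, its height the summed RPKM of the 10 members and its colors Adipor1, Mmd, Adipor2 and the other 7 members. The summed height was between 182.1 and 200.4 RPKM in 393P_vector samples and between 223.2 and 253.7 RPKM in 393P_ZEB1 samples, and the Mmd part is visibly larger in the latter.

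Mmd made up between 19.4% and 23.3% of the summed RPKM of the family in 393P_vector samples and between 35.0% and 41.5% in 393P_ZEB1 samples. The ratio of Mmd to Adipor1 was between 0.365 and 0.507 in 393P_vector samples and between 0.738 and 0.975 in 393P_ZEB1 samples. The ratio of Paqr8 to Paqr7 went from between 1.15 and 1.32 to between 0.528 and 0.567. The groups did not overlap in any of these 3 measures.

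Genes of some chromosomes had shifted together between the lines, and Mmd lies on such a chromosome. The 1155 other tested genes of chromosome 11 had a median log2 fold change of 0.26, with 29.3% called higher and 10.0% called lower, against a median of -0.05 on the other chromosomes. Mmd was 0.96 above the median of chromosome 11 and higher than 94.5% of those genes. Within 1 Mb of Mmd 6 genes were tested, with a median of 0.20. Of these, Hlf, a transcription factor gene 58.0 kb away, was called higher (log2 fold change 2.39). Hlf was low, at 0.760, 0.544 and 0.554 CPM in 393P_vector samples and 3.72, 3.38 and 2.59 CPM in 393P_ZEB1 samples. Nog, which encodes the BMP inhibitor noggin and lay below 1 CPM in all 6 samples, was called lower (-3.61). The genes Pctp, Stxbp4, Cox11 and Tom1l1 did not pass. The medians were 0.06 for the chromosome of Paqr8 and -0.14 for that of Paqr5, which were 1.51 and 1.12 below them. The 6 tested genes within 1 Mb of Paqr8 had a median of -0.57, with 2 called higher and 3 lower, and Paqr8 was 0.87 below that median. The part of the chromosome-wide shifts in the changes of Mmd and Adipor2 was not tested.

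**Figure D4:**
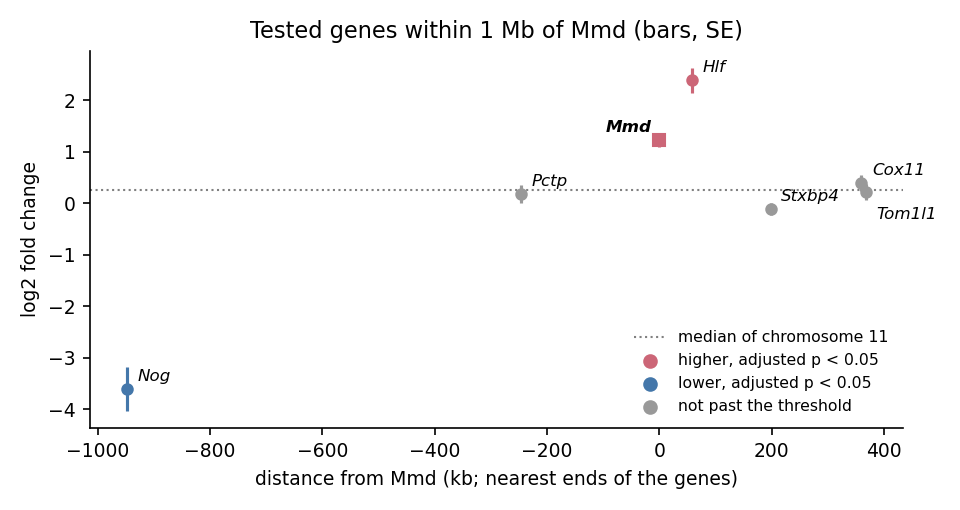
The x axis is the distance from Mmd in kb between the nearest ends of the genes, the y axis the log2 fold change in 393P_ZEB1 over 393P_vector cells, bars are standard errors and the dotted line is the median of chromosome 11. Hlf and Mmd stand above the line, Pctp, Stxbp4, Cox11 and Tom1l1 lie near it, and Nog lies far below.

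The genes whose levels most resembled those of Mmd across the 6 samples were Zkscan3, Hspa4, Sertad2, Gdi2 and Esyt2, with Pearson r of log2 CPM between 0.993 and 0.999 among 10103 genes with a mean of at least 5 CPM. The 6 samples fall into 2 conditions, and 725 genes had an r above 0.95, so this describes a step in the same direction between the conditions. Their log2 fold changes were 0.42 for Zkscan3, 0.50 for Hspa4, 0.77 for Sertad2, 0.72 for Gdi2, a regulator of Rab GTPases, and 0.77 for Esyt2, a tether between the endoplasmic reticulum and the plasma membrane. Each was smaller than the 1.23 of Mmd, as r does not depend on the size of the step. That all were rises describes the selection. Hspa4 and Sertad2 lie on chromosome 11 with Mmd.

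Golgi scaffolds and the dynein machinery are the setting in which Mmd acts. Of the list genes tested, 30.8% were called, against 37.6% of all genes tested. Of 28 genes 26 were tested, 8 were called higher and none lower, against 18.3% and 19.3% of all genes tested, and the list median was 0.12 against -0.02 for all genes. The largest increases were in Bicdl1, a dynein adaptor (8.87 ± 4.47 to 20.9 ± 3.59 CPM, log2 fold change 1.24, adjusted p = 0.036 from edgeR), and in Dctn4, a dynactin subunit (101.6 ± 14.4 to 185.9 ± 8.66 CPM, log2 fold change 0.87, adjusted p = 0.00117 from edgeR). Dctn4 lies on chromosome 18, whose genes had a median of 0.64. The other 6 called were Bicd1 (0.87), Golgb1 (0.65), Golga3 (0.53), Bicd2 (0.51), Dync1li2 (0.43) and Dync1i2 (0.29), which code for dynein adaptors, golgins and dynein chains. The call of Bicdl1 was lost without 393P_vector replicate 1 or any of the 393P_ZEB1 samples (adjusted p between 0.0616 and 0.108 from edgeR). Without 393P_vector replicate 3 the count of 8 became 13, with 10 higher and 3 lower, in a fit that called 53.0% of all genes tested. The count was 5 without 393P_vector replicate 1, where 29.8% of all genes tested were called. It was 3, 4 and 3 without 393P_ZEB1 replicates 1, 2 and 3, where 26.2%, 26.0% and 25.7% were called.

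The Ras-Raf-MEK-ERK list, on which Paqr3, Mmd and Mmd2 act from the Golgi, moved in both directions. Of 33 genes tested, 8 were called higher, 8 lower and 17 in neither direction, against 18.3% higher and 19.3% lower among all genes tested, and the median was 0.09. Rasgrp3, a Ras exchange factor, rose from 42.9 ± 2.59 to 255.0 ± 16.5 CPM (log2 fold change 2.57, adjusted p = 2.19e-06 from edgeR). Spry4, a feedback inhibitor of the pathway on chromosome 18, rose from 24.8 ± 2.09 to 117.4 ± 10.4 CPM (2.24). Its relatives Spry1 and Spry2 fell, from 19.0 ± 0.679 to 3.32 ± 0.637 CPM (-2.52) and from 100.6 ± 7.06 to 55.5 ± 1.78 CPM (-0.86). Of the kinases named here, Braf (-0.55) and Map2k1 (-0.38) were lower and Mapk3 (1.06) was higher. The count of 16 became 9, 9 and 10 without 393P_vector replicate 2 and 393P_ZEB1 replicates 1 and 2. Those fits called 32.4%, 26.2% and 26.0% of all genes tested.

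**Figure D5:**
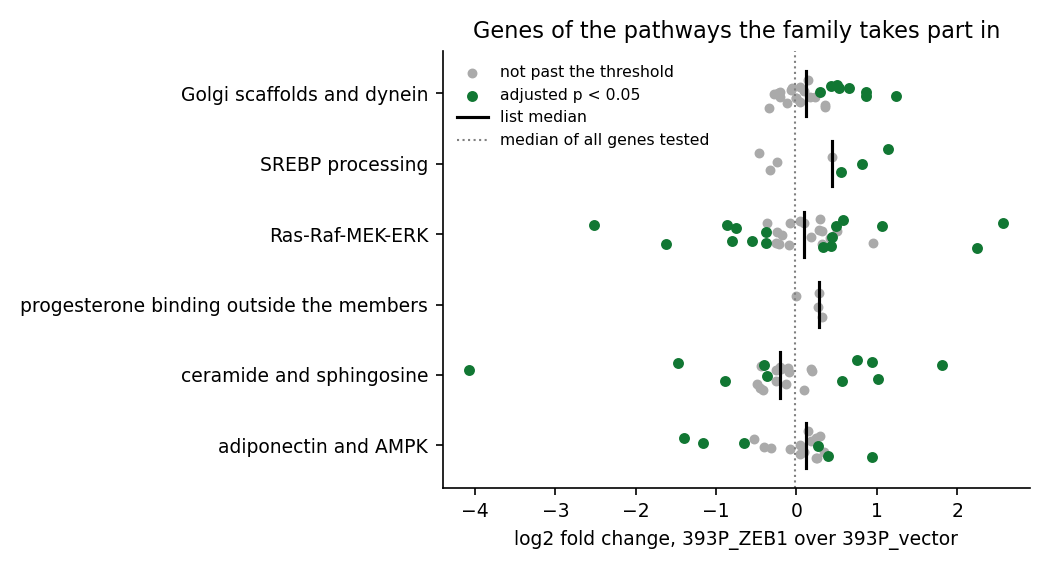
Each point is a tested gene of 1 of 6 lists (y axis) at its log2 fold change in 393P_ZEB1 over 393P_vector cells (x axis), green where the adjusted p was below 0.05, with list medians as black bars and the median of all genes tested as a dotted line. In the Golgi and SREBP lists the green points lie to the right only, and in the Ras-Raf-MEK-ERK and ceramide lists they lie on both sides.

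SREBP processing, in which SCAP carries the lipid-controlling SREBP factors to the Golgi, had 3 of 7 genes called higher and none lower, with a median of 0.45. This was 42.9% of the list, near the 37.6% of all genes tested that were called. Insig1, which retains SCAP in the endoplasmic reticulum, rose from 31.2 ± 1.02 to 68.6 ± 4.43 CPM (log2 fold change 1.13, adjusted p = 0.000113 from edgeR). Srebf1, on chromosome 11, rose from 201.3 ± 50.1 to 355.7 ± 9.19 CPM (0.82, adjusted p = 0.0103 from edgeR), and Mbtps1, a protease that cuts SREBP, was the third (0.56). Without 393P_vector replicate 3 the count was 6, with 4 higher and 2 lower, in a fit that called 53.0% of all genes tested. Scap itself had a log2 fold change of -0.32 and did not pass (adjusted p = 0.0907 from edgeR).

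Of the genes around the adiponectin receptors, 20 of 21 in the adiponectin and AMPK list were tested, with 3 called higher and 3 lower and a median of 0.12. This was 30.0% of those tested, below the 37.6% of all genes. Adipoq, the ligand, had 0, 1 and 2 counts in 393P_vector samples and 6, 0 and 0 counts in 393P_ZEB1 samples and was not tested. Prkaa2, a catalytic AMPK subunit, rose from 3.64 ± 0.441 to 7.01 ± 0.810 CPM (0.94, adjusted p = 0.00347 from edgeR). Prkag2, a regulatory subunit, fell from 15.8 ± 0.673 to 7.01 ± 0.756 CPM (-1.17), and Stk11, the kinase that activates AMPK, fell from 81.9 ± 3.68 to 52.2 ± 7.36 CPM (-0.65). Camkk2, another kinase of AMPK, had a log2 fold change of 0.39 (adjusted p = 0.0411 from edgeR), and its call was lost when any sample other than 393P_vector replicate 3 was left out (adjusted p between 0.0522 and 0.137 from edgeR). The other 2 called were Cab39, a partner of Stk11 (0.27), and Prkag3, a regulatory AMPK subunit below 1 CPM in both groups (-1.40). The count of 6 became 11 without 393P_vector replicate 3, where 53.0% of all genes tested were called. It became 3 without 393P_vector replicate 1, where 29.8% were called.

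The ceramide and sphingosine list, which covers the lipids that adiponectin receptors cleave, had 24 of 30 genes tested, 5 called higher and 5 lower, with a median of -0.20. This was 41.7% of those tested, near the 37.6% of all genes. Cers3, a ceramide synthase, fell from 10.5 ± 0.508 to 0.621 ± 0.126 CPM (-4.07, adjusted p = 4.16e-06 from edgeR), and Sphk1, a sphingosine kinase, fell from 9.93 ± 2.24 to 3.58 ± 0.230 CPM (-1.47). Smpd3, a sphingomyelinase, rose from 2.23 ± 0.194 to 7.82 ± 0.557 CPM (1.81, adjusted p = 7.5e-05 from edgeR). Cers1, another ceramide synthase, also rose (1.02, adjusted p = 0.0259 from edgeR), but it overlaps Gdf1 and its call was lost without 393P_ZEB1 replicate 1 or 3 (adjusted p = 0.0982 and 0.064 from edgeR). The ceramide synthase Cers4 (0.94), the ceramidase Asah2 (0.76) and Sptlc1 of the first step of ceramide synthesis (0.56) were also higher. The ceramidase Acer3 (-0.88), the receptor S1pr2 (-0.40) and the lyase Sgpl1 (-0.37) were also lower. The count of 10 became 16 without 393P_vector replicate 3, where 53.0% of all genes tested were called. It became 6 without 393P_ZEB1 replicate 1 or 3, where 26.2% and 25.7% were called.

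The progesterone-binding list outside the members had 4 tested genes, Pgrmc1, Pgrmc2, Nenf and Cyb5d2. None of them was called by edgeR or by DESeq2. These tools called 37.6% and 41.6% of all genes tested. Of the 4 genes, 1 had an unadjusted p below 0.05 from edgeR. Pgrmc1 and Pgrmc2, membrane proteins that bind heme and progesterone, had log2 fold changes of 0.27 and -0.01. Without 393P_vector replicate 3 the count was 3, all higher, in a fit that called 53.0% of all genes tested. Pgr, the nuclear progesterone receptor, had means of 0.0809 and 0.110 CPM and was not tested.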

How the data were processed

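RNA sequencing counts from 6 samples, 3 of 393P_ZEB1 and 3 of 393P_vector, were grouped by their labels and none was left out. The authors deposited, per sample, unnormalized read counts for 24214 RefSeq features, with exon length, the number of exons above 10 reads and an RPKM. The deposited RPKM values were not used, and RPKM was recomputed from counts. The aligner, counting program and use of strand are not given in the sources used here. Coordinates are those of GRCm38, as 96.9% of 12561 matched genes lay inside their RefSeq interval.

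Counts were filtered by filterByExpr (minimum count 10), normalized by TMM and fitted with edgeR 4.0.16 (robust quasi-likelihood) in R 4.3.3. DESeq2 1.42.0 was an alternative. The procedure was also run on simulated counts that held no outlying sample, and no result here rests on them. An exact permutation test (SciPy 1.17.1) was added for single members. No members' protein sequences were used here.

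The labels number replicates alike in both groups. Deviations from the group mean correlated with r of 0.19, -0.13 and -0.03 for equal numbers, so samples were not paired.

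The members and lists were chosen with earlier results of these data known. Named list genes are the 2 largest increases and 2 largest decreases among called genes with a mean of at least 1 CPM, and others named from counts were picked after their values were seen. List genes absent under their symbol were found by RefSeq synonym (10 genes). Some list genes are not reported here by name.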

Additional observations from a re-analysis of the deposited data

How the results depend on the processing

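With edgeR, the alternatives were DESeq2's size factors, no filter, at least 10 counts in every sample, a replicate block, leaving out the 10 most counted genes or each sample in turn, and an adjusted p below 0.01. DESeq2's Wald test was the other tool. Mmd, Paqr8, Adipor2 and Paqr4 kept direction and call in all of them. Mmd had log2 fold changes between 1.15 and 1.35, and 1.22 with the replicate block (adjusted p = 0.00109 from edgeR). Paqr5 lost its call without 393P_ZEB1 replicate 2 and at 0.01. At 0.01, 4 members and 22.5% of all genes tested were called. The block, which called 31.9% of all genes tested, left 5 members called and 5 genes of the Golgi list, against 8. It changed no other count by over 1.5 times. Camkk2 lost its call with the block and with no filter (adjusted p = 0.0942 and 0.0572 from edgeR). Zkscan3 lost its call with the block and at 0.01. The call of Zkscan3 was also lost without replicate 1 or 2 of either group (adjusted p between 0.0531 and 0.071 from edgeR). At 0.01 the counts were 3129 genes in all, 3 in the adiponectin and AMPK list, 6 for ceramide and sphingosine, 7 for Ras-Raf-MEK-ERK and 3 for Golgi scaffolds, fewer by the construction of the threshold. DESeq2 called 5 SREBP genes against 3 and 41.6% of all genes tested against 37.6%, and the cause was not tested. Leaving out a sample gave between 4 and 6 members, 3645 to 7476 genes, 3 to 11 adiponectin and AMPK genes, 6 to 16 ceramide genes, 0 to 3 progesterone-binding genes, 9 to 22 Ras-Raf-MEK-ERK genes, 3 to 6 SREBP genes and 3 to 13 Golgi genes. With 8mers alone 4 members held a miR-200 site, and with all transcripts 6, as before. Levels without TMM factors moved by less than 1 SD. Mmd2 and Paqr6 stay undetermined at this depth. Intervals cover the spread between samples.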
